A study of Mus musculus with 3 samples.

Results

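The IgLON genes Lsamp, Ntm, Opcml and Negr1 were examined in peak lists of an ATRX ChIP-seq experiment in mouse neurons. They are 4 of 21883 protein-coding genes in the gene table. A peak was counted as theirs when any base of it lay within the annotated GRCm38 span of the gene or 5 kb on either side. By this rule 291 of 112153 control peaks and 292 of 105674 MICAL1-FL peaks belonged to the family. The rule used gene positions only.

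The cultures were primary neurons of C57BL6/J embryos taken at E15.5 to E17.5, given a lentivirus on day 5 in vitro and profiled at day 14. Control neurons carried mCherry, a fluorescent protein, and the other culture carried MICAL1-FL, where MICAL1 is a monooxygenase that acts on actin filaments. The labels do not give the brain region, the number of embryos behind a culture or how strongly MICAL1-FL was expressed. Each condition had 1 ChIP library, so no difference between conditions could be tested. An input library of control neurons was not analysed here. The identifiers inside the list labelled MICAL1-FL start with TBC_M2, so every MICAL1-FL value rests on the sample label. Peak lists hold no expression values, so the neuronal identity of the cultures was not checked against markers.

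IgLON proteins are small cell-surface molecules with immunoglobulin domains that are tied to the neuronal membrane by a lipid (GPI) anchor. They bind one another in pairs between and within cells, and act in neurite outgrowth and in the forming of synapses. LSAMP is the limbic system-associated membrane protein, NTM is neurotrimin, OPCML is the opioid-binding cell adhesion molecule-like protein, and NEGR1 is the neuronal growth regulator. The genes are known for very long introns. ATRX is a remodeller of chromatin that places histone H3.3 at repeats and heterochromatin.

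Single peaks in these genes were shallow. With the depth of a peak read back from the authors' fold over background and p-value, every IgLON peak was 4 to 10 fragments deep, with a median of 5 in both lists. Peaks of at most 6 fragments made up 86.3% of the family's control peaks and 85.3% of its MICAL1-FL peaks, where protein-coding genes as a whole had 82.0% and 84.6%. The q-value was 1 for all but 9 control and 6 MICAL1-FL peaks of the family, and for 95.8% and 96.9% of the whole lists. In the family 1 peak, a MICAL1-FL peak in Ntm, had a q below 0.05. In the whole lists 466 control and 402 MICAL1-FL peaks did. All intervals below are 95% intervals for counting error alone.

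The outer promoter of Lsamp, the Negr1 promoter and an inner promoter of Ntm lay under ATRX peaks of the control list. RefSeq's promoter table for GRCm38.p6, which covers 250 bases before and 50 after each listed start, held 6 promoters of the 4 genes, all matched by symbol. Their strands put Lsamp, Opcml and Negr1 on the plus strand and Ntm on the minus strand. Shown are the 3 promoters with a peak on them and the inner promoter of Lsamp, whose peaks began just past it. Each runs 5′ to 3′ on its own strand, with runs of 4 or more G or C in capitals.
Lsamp outer promoter, chr16:39984114-39984413, plus strand: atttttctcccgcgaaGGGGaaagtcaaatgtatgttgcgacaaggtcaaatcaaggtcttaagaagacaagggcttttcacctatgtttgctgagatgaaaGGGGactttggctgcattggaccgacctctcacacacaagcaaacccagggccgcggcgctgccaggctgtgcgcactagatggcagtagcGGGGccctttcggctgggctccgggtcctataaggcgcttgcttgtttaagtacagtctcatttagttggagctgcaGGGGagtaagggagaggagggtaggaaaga
Lsamp inner promoter, chr16:41532576-41532875, plus strand: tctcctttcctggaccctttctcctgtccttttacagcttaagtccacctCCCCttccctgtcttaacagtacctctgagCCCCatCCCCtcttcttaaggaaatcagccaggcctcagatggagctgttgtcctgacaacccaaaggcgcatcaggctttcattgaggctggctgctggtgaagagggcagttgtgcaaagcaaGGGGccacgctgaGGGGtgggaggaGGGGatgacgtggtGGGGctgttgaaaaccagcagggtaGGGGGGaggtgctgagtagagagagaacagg
Negr1 promoter, chr3:156561544-156561843, plus strand: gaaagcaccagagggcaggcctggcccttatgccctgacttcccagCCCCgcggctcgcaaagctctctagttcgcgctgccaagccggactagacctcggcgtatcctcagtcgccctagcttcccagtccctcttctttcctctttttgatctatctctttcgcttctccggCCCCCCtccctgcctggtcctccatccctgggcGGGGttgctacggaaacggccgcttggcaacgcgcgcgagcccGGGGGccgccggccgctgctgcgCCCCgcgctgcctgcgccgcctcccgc
Ntm inner promoter, chr9:29413403-29413702, minus strand: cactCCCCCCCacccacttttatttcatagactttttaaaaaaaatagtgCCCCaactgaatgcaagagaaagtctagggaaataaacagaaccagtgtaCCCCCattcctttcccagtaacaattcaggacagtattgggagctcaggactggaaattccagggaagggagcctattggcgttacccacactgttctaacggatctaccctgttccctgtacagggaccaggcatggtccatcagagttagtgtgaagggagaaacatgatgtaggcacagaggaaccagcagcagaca

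The outer Lsamp promoter was the one place where peaks of both lists met at a listed start. The control peak, 6 fragments deep, ran from 39984051 to 39984919 on chromosome 16 and held all 300 bases of the promoter. The MICAL1-FL peak, 8 fragments deep, ran from 39984392 to 39984788 and took in its last 22 bases. The summits lay 56 bp and 173 bp downstream of the listed start. Both peaks were weak by the authors' p-values, 0.00144 and 0.00442.

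At the inner start of Lsamp, 70.5% of the way along the gene, both lists again had a peak just downstream. The control peak was 7 fragments deep, began 211 bp past the promoter and had its summit 631 bp from the start. The MICAL1-FL peak overlapped it by 131 bp, was 5 fragments deep and had its summit 1022 bp from the start.

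The promoter of Negr1 and that of an inner start of Ntm carried a peak in the control list alone. At Negr1 a control peak 5 fragments deep covered 297 bases of the promoter, and the nearest MICAL1-FL summit was 3850 bp downstream. At the inner start of Ntm a control peak 5 fragments deep covered 223 bases, with its summit at -11 bp from the start. The nearest MICAL1-FL summit was at -1683 bp. A second inner start of Ntm, within 1 kb of the first, had no peak on its promoter. The outer annotated start of Ntm was not in the promoter table, so the counts of promoters and listed starts leave it out. A control summit lay 0.435 kb past that outer start, and the nearest MICAL1-FL summit 1.37 kb past it. At Opcml the nearest summits lay 2894 bp (control) and 5017 bp (MICAL1-FL) past the listed start, and neither peak touched the promoter.

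A control peak lay on 3 of the 6 listed promoters. For MICAL1-FL peaks it was 1 of 6, where 10.3% and 10.6% of 21229 listed promoters of protein-coding genes had one. A summit lay within 1 kb of 5 of the 6 starts in the control list and of 1 of 6 in the MICAL1-FL list, against 23.1% and 22.0% of all listed starts. Both lists had such a summit at 1 of 6 starts, the outer one of Lsamp, against 8.37% of all. Both had a peak on the promoter at the same 1 of 6, against 2.37% of all. The 2 inner starts of Ntm shared 1 control peak, and the Lsamp inner MICAL1-FL summit fell outside 1 kb by 22 bp. With peaks of 4 to 8 fragments, the lack of a call in the MICAL1-FL list does not show less ATRX there.

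In base composition the promoters were not alike. The Negr1 promoter had a GC content of 68.0% and 29 CG pairs, the outer Lsamp promoter 53.0% and 12, the inner Lsamp promoter 56.3% and 3, and the printed Ntm promoter 47.3% and 2. The median of 21237 listed promoters was 56.3% GC and 13 CG pairs. Runs of 4 or more G on either strand, searched as GGGG and CCCC because ATRX is known for G-rich repeats, numbered 4 and 8 in the outer and inner Lsamp promoters, 5 in Negr1 and 3 in Ntm. Such a run was present in 88.2% of listed promoters. The telomere unit TTAGGG, searched on both strands, was in none of the 6 promoters and in 10.5% of all.

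Pooled over the 4 IgLON genes, ATRX peaks were denser in the first 20 kb than in the rest in both lists. Counted from the outer annotated start, these stretches held 13 control and 11 MICAL1-FL summits, which is 163 and 138 per Mb. The rest of the genes had 55.7 and 56.1 per Mb. The first 20 kb were thus 2.92 times (1.53 to 5.07) as dense as the rest in the control list and 2.45 times (1.21 to 4.46) in the MICAL1-FL list. Each gene gave 0.02 Mb to the first 20 kb, but Lsamp gave 2.18 of the 4.98 Mb of the rest. That part of Lsamp was sparse, with 34.0 and 40.9 summits per Mb. The intervals do not cover this unequal weighting, and its part in the ratios was not tested. The 421 other genes of at least 300 kb with a known strand, pooled in the same way, gave 1.63 and 1.58 times. Both intervals include these values.

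Among the members, Opcml had the most summits in its first 20 kb in the control list, and Ntm in the MICAL1-FL list. Opcml had 7 control and 3 MICAL1-FL summits, Ntm 2 and 4, Negr1 3 and 2, and Lsamp 1 and 2. At least 2 summits were present in 3 of the 4 genes in the control list and in 4 of 4 in the MICAL1-FL list, where 45.8% and 43.9% of the other long genes had as many. The width of 20 kb was chosen after the peaks had been seen. Without Opcml the control density was 100 per Mb (36.7 to 218), and without Ntm the MICAL1-FL density was 117 per Mb (46.9 to 240). Over the first 50 kb of all 4 genes the densities were 80.0 (45.7 to 130) and 85.0 per Mb (49.5 to 136). These 4 intervals include the density of the rest.

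The strongest peak of the family lay in this stretch of Ntm. It was a MICAL1-FL peak from 29956785 to 29957335 on chromosome 9, with its summit 6.09 kb past the outer start, 10 fragments deep, with a fold of 4.19 and a q of 0.0245. Of 105674 MICAL1-FL peaks, 402 had a q below 0.05. A control peak of 6 fragments had its summit 433 bp away, at 5.65 kb, without overlapping it. The other 3 MICAL1-FL summits of the first 20 kb stood at 1.37, 3.20 and 6.82 kb, and 1 more control summit, at 0.435 kb.

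The strongest control peak of the family was in Opcml, 28.3 kb from the outer start, from 27818835 to 27819166 on chromosome 9. It was 9 fragments deep with a fold of 3.81 and a q of 0.182. A MICAL1-FL peak of 5 fragments overlapped it, with the summits 26 bp apart. The strongest MICAL1-FL peak of Opcml stood elsewhere, 61.7% along the gene, with 9 fragments, a fold of 3.82 and a q of 0.139, and had no control summit within 13.1 kb.

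The strongest control peak of Ntm, from 29654086 to 29654478, was 8 fragments deep and lay 31.9% along the gene. It had a q of 0.705 and stood 0.878 kb from a MICAL1-FL summit. The lowest q in Lsamp was 0.626, and every Negr1 peak had a q of 1. The strongest Lsamp peaks, both 8 fragments deep, lay 33.6% (control) and 59.1% (MICAL1-FL) along the gene. They stood 4.61 and 25.7 kb from the nearest summit of the other list. In Negr1 the strongest peaks were 7 fragments deep and tied, 5 of them in the control list and 4 in the other. The control peak taken by the rule for ties lay 3.26 kb past the start and overlapped a MICAL1-FL peak of 6 fragments.

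**Figure D1:**
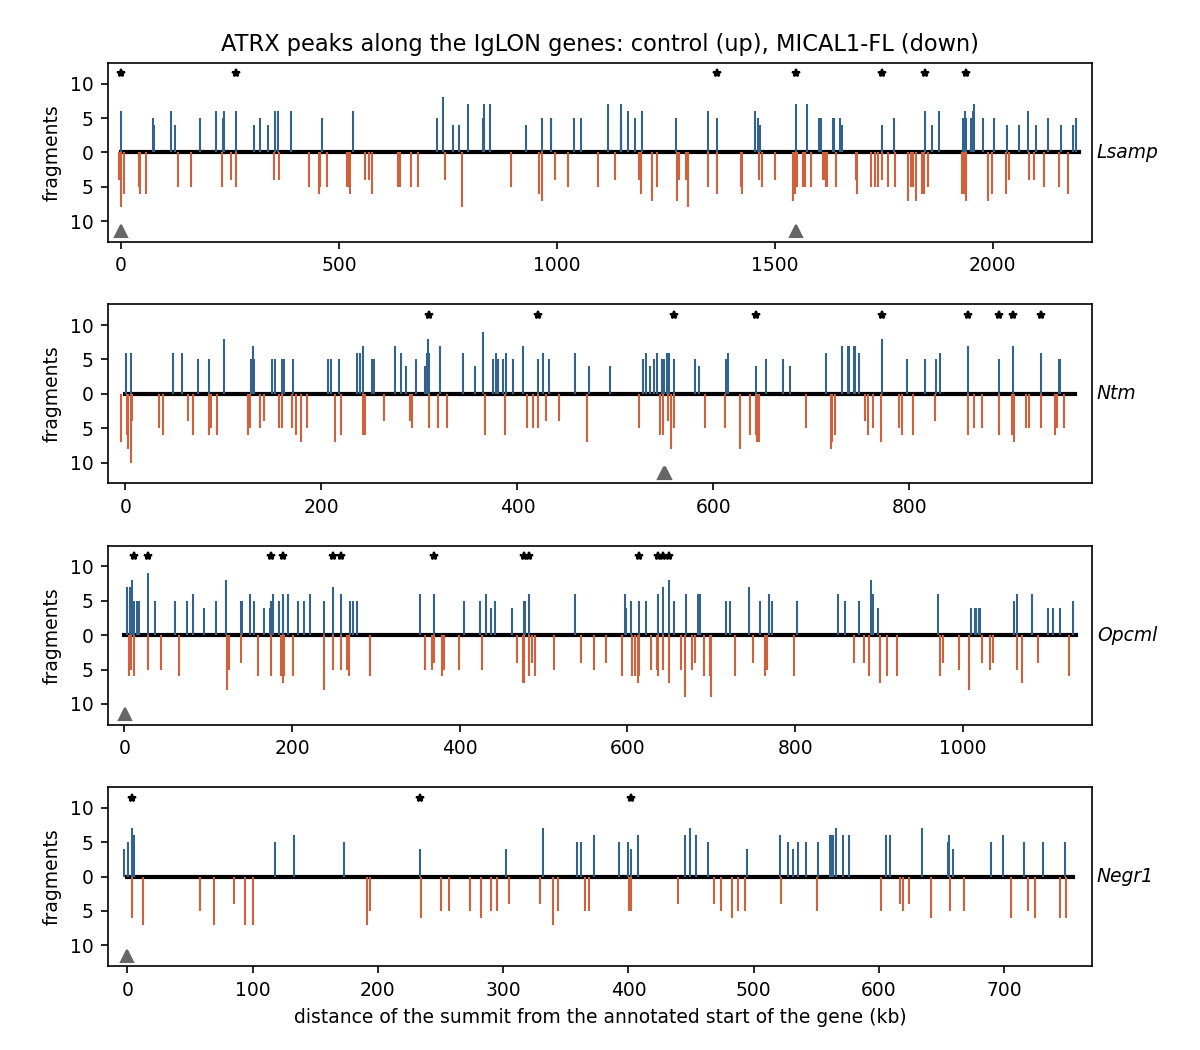
Summits of ATRX peaks along Lsamp, Ntm, Opcml and Negr1, by distance from the annotated start of the gene in kb, with line height showing the depth of the peak in fragments (control upward, MICAL1-FL downward). Stars mark the 32 places where peaks of both lists overlap and triangles the starts in the promoter table; no line is longer than 10 fragments.

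The 4 genes carried ATRX peaks at very different densities, and the order was the same in both lists. Ntm came first with 86.9 control peaks per Mb (69.4 to 107) and 78.7 MICAL1-FL peaks per Mb (62.1 to 98.3). Opcml, its neighbour on chromosome 9, followed with 74.3 (59.3 to 91.8) and 69.0 (54.6 to 86.0). Negr1 on chromosome 3 had 60.2 (44.0 to 80.2) and 57.5 (41.8 to 77.2). Lsamp on chromosome 16 had the lowest values, 34.0 (26.7 to 42.6) and 41.7 (33.6 to 51.1). Neighbours in this order from Ntm to Negr1 had overlapping intervals. The control interval of Lsamp lay below those of the other 3, while its MICAL1-FL interval overlapped that of Negr1.

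Lsamp is the longest of the 4, at 2.20 Mb, and had the highest MICAL1-FL count. It held 75 control and 92 MICAL1-FL peaks. Ntm, at 0.969 Mb, held 85 and 77, Opcml, at 1.13 Mb, 85 and 79, and Negr1, at 0.755 Mb, 46 and 44. Peaks covered 1.36% of the Lsamp window in the control list and 3.42% of that of Ntm, with 1.55% and 2.88% in the MICAL1-FL list.

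Among the 556 protein-coding genes of at least 300 kb, Ntm ranked 51st from the top by control density and 45th by MICAL1-FL density. Opcml ranked 108th and 88th, Negr1 181st and 187th, and Lsamp 415th and 358th. The median long gene had 47.8 and 48.5 peaks per Mb, with interquartile ranges of 33.8 to 67.9 and 35.9 to 64.2. Ntm and Opcml stood above that range in both lists, Negr1 inside it, and Lsamp inside it below the median.

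**Figure D2:**
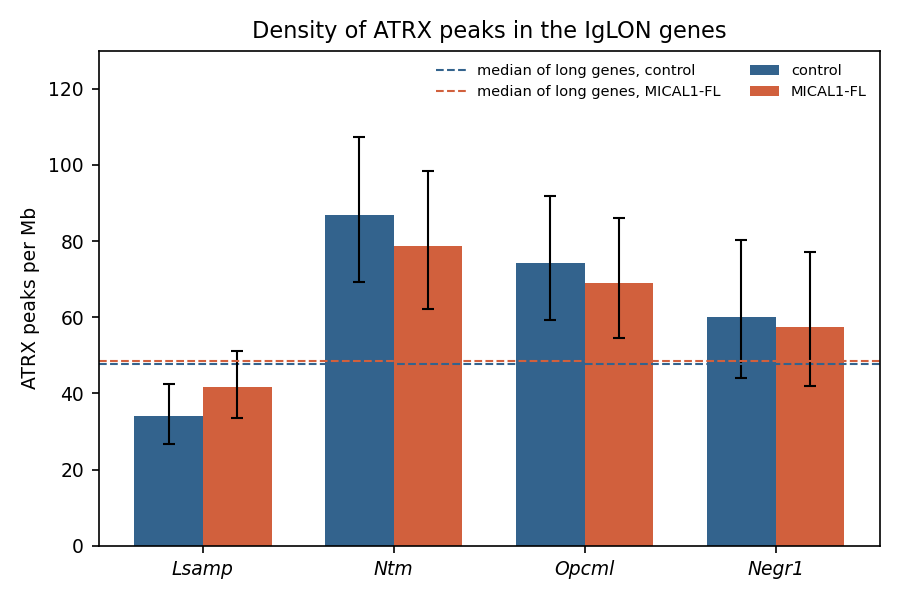
ATRX peaks per Mb of gene and 5 kb flanks in the control and MICAL1-FL lists, with exact Poisson 95% intervals as error bars and dashed lines at the median of the 556 genes of at least 300 kb. Ntm and Opcml stand above the lines and Lsamp below them in both lists.

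The stretches around the genes followed part of this order. In the 500 kb on each side, Lsamp had 47.0 control and 49.0 MICAL1-FL summits per Mb, and its own density was 0.723 (0.495 to 1.06) and 0.851 (0.595 to 1.23) times that. Around the Opcml and Ntm locus the flanks had 66.0 and 56.0 summits per Mb, and the genes together had 1.21 (0.908 to 1.64) and 1.31 (0.961 to 1.81) times as many. Negr1 stood out from its flanks in the control list, 2.23 times (1.36 to 3.73), while the MICAL1-FL value was 1.403 (0.896 to 2.20). The Negr1 flanks themselves had 27 control and 41 MICAL1-FL summits, and the numbers in the gene, 46 and 44, were close. Before the gene there were 12 control and 25 MICAL1-FL summits, and past it 15 and 16. In the gap of 59.3 kb between the windows of Opcml and Ntm there were 1 control and 6 MICAL1-FL summits.

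The family had nearly as many ATRX peaks in one condition as in the other, and any difference was within counting error. The MICAL1-FL to control ratio was 1.003 (0.850 to 1.18), where all protein-coding genes gave 0.927. The ratio was 0.906 (0.657 to 1.25) for Ntm, 0.929 (0.675 to 1.28) for Opcml and 0.957 (0.618 to 1.48) for Negr1. Lsamp had the highest, 1.23 (0.894 to 1.69), or 1.32 times that of all genes.

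No member had an interval that left out 0.927, and 3.32% of the 1174 genes with at least 20 peaks had one above it, with 1.79% below. Lsamp was the 1 of 4 members at 1.25 times the ratio of all genes or more, where 28.1% of the 1174 genes were, and no member was as far below, where 25.7% were. The median ratio over these genes was 0.923, and over the 4 members 0.943. Without Lsamp the family ratio was 0.926.

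Related adhesion genes gave ratios around the same values. Contactins and contactin-associated genes, which build cell contacts of axons, had 297 control and 324 MICAL1-FL peaks over 13 genes, a ratio of 1.09 (0.929 to 1.28). Neurexins and neuroligins, the partners across the synaptic cleft, had 171 and 197 over 6 genes (1.15, 0.934 to 1.42). A list of 19 other adhesion genes of the immunoglobulin superfamily had 395 and 393 (0.995, 0.863 to 1.15). The contactin and neurexin intervals narrowly left out the ratio of all genes, and the IgLON interval overlapped all 3. Among members with at least 20 peaks, the contactin list ranged in ratio from Cntnap5c (23 and 12 peaks) to Cntn1 (8 and 16), and the list of other adhesion genes from Nfasc (15 and 7) to Ncam2 (8 and 21).

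In density the IgLON genes, with 57.1 control and 57.3 MICAL1-FL peaks per Mb, were close to the other immunoglobulin superfamily genes (59.6 and 59.3). The contactin list had 34.8 and 38.0 and the neurexin list 45.1 and 51.9. The family's intervals were 50.7 to 64.1 and 50.9 to 64.3, so the MICAL1-FL one includes the neurexin value, and Lsamp alone, at 34.0 and 41.7, lay below both neurexin values. Iglon5, the remaining gene of the family, is 17.3 kb long and had 1 peak in each list, which did not overlap. Of genes tied to IgLON function, the sheddase gene Adam10 had 2 control and 3 MICAL1-FL peaks, the growth factor receptor gene Fgfr2 7 and 16, and the sterol carrier gene Npc2 0 and 1. The genes most like the family, by the summed difference in both log2 densities and in the percentage of shared control peaks over 552 long genes, were Sorcs3, Mctp1, Cadps, Dok6 and Car10. The densities of Sorcs3, which were used to pick it, were 59.1 and 64.0 peaks per Mb, with 11.1% of control peaks shared.

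Peaks of the lists overlapped at 32 places in the 4 genes, 13 of them in Opcml. This was 10.997% of the control peaks (7.64 to 15.2) and 10.96% of the MICAL1-FL peaks (7.62 to 15.1). Over all protein-coding genes 8.05% and 8.69% were shared, values inside those intervals. Opcml shared 15.3% of its control peaks (8.40 to 24.7) and 16.5% of its MICAL1-FL peaks (9.06 to 26.5). Ntm shared 9 (10.6% and 11.7%), Lsamp 7 (9.33% and 7.61%) and Negr1 3 (6.52% and 6.82%). The lower bounds of Opcml lay just above the values of all genes.

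A share of at least 10% of control peaks was reached by 2 of the 4 genes, Opcml and Ntm, where 35.9% of 496 genes with at least 20 control peaks reached it. In the MICAL1-FL list the same 2 genes reached it, where 39.2% of 446 did. Opcml ranked 67th and 57th from the top among these genes. Opcml and Ntm were also the densest of the 4 in peaks, and the part of density in these shares was not tested.

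**Figure D3:**
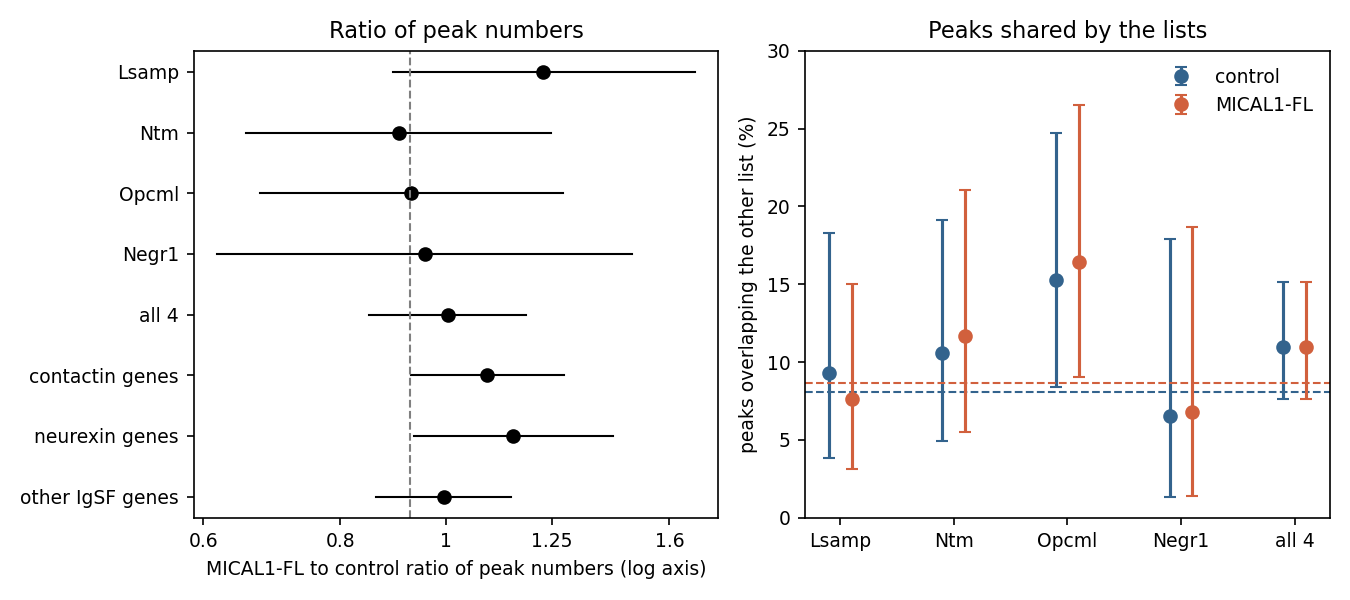
Left, MICAL1-FL to control ratio of peak numbers on a log axis for each gene, the 4 together and 3 lists of related genes, with exact 95% intervals and a dashed line at 0.927, the ratio of all protein-coding genes; the intervals of all 4 genes cross the line. Right, percentage of peaks that overlap the other list, with exact 95% intervals and dashed lines at the values of all protein-coding genes; Opcml is highest in both lists.

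Overlapping peaks were often not centred on each other. Their median width was 365 bp in the control list and 390 bp in the MICAL1-FL list, against 347 and 326 bp for the other peaks of the family. Overlaps ran from 23 to 428 bp with a median of 222 bp, and summits were 1 to 605 bp apart with a median of 188 bp. In 20 of the 32 pairs the summits lay within 250 bp. With summits within 250 bp in place of any overlap, the family's shares were 6.87% and 6.85% in place of 10.997% and 10.96%. Over all protein-coding genes they were 5.11% and 5.52% in place of 8.05% and 8.69%, so the family was not set apart in this. The closest pairs were in Opcml, at 27979988 to 27980384 in control coordinates with summits 1 bp apart (6 and 7 fragments), and in Ntm, at 29653293 to 29653656 with summits 7 bp apart (6 and 5 fragments). The control peak was the deeper of the pair 16 times, the MICAL1-FL peak 11 times, and 5 pairs were equal. These depths are not scaled for total reads, which are not known, and the order can differ by fold. At the outer Lsamp promoter the MICAL1-FL peak was deeper, but its fold was 2.21 against 2.67 in the control list.

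Most pairs of Opcml lay early in the gene and most of Ntm late, but the pairs were few and the difference was not tested. In Opcml 9 of 13 pairs stood in the first 50% of the gene, and 4 stood between 54.1% and 57.3% of its length. In Ntm 7 of 9 stood in the last 50%, 4 of them between 88.7% and 96.5%. Of all Opcml summits, 49.4% (control) and 38.0% (MICAL1-FL) lay in the first 40% of the gene, and 67.1% and 68.4% in the first 60%. For all Ntm summits these shares were 47.1% and 43.4%, and 70.6% and 59.2%. Of the control peaks that overlapped, 28.1% were 7 fragments or deeper, against 12.0% of the other control peaks. In the MICAL1-FL list this was 15.6% against 14.6%.

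Over the 4 genes together no large stretch of the gene stood apart in peak number. With each gene cut into 5 equal stretches, a stretch held 17.4% to 21.0% of the 580 summits of both lists inside the spans, and the first held 21.0% (17.8 to 24.6). These values pool genes with unlike spreads, and the first 20 kb are a small part of the first stretch. Opcml had 29 of 85 control summits in the first 20% of its length (34.1%, 24.2 to 45.2) and 15 of 79 MICAL1-FL summits (19.0%, 11.03 to 29.4), a ratio of 0.517 (0.258 to 0.997). From 40% to 60% of its length it had 24 MICAL1-FL summits (30.4%, 20.5 to 41.8) and 15 control summits. In Negr1 the early control summits were few, 2 of 45 from 20% to 40% (4.44%, 0.543 to 15.1), and 16 of 45 lay from 60% to 80% (35.6%, 21.9 to 51.2). MICAL1-FL summits numbered 9 and 8 in these stretches.

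Of the 40 stretches over 4 genes and both lists, 4 had an interval that left out 20%, and all 4 are named above. Intervals of this level leave out the true value in up to 5% of cases. Of the 20 ratios between lists by stretch, 1 had an interval that left out 1, that of the first 20% of Opcml. The ratio from 20% to 40% of Negr1, 4.50 (0.931 to 42.8), was the 1 with an interval above the ratio of all genes, and 0 of 20 had one below it, the first 20% of Opcml included.

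**Figure D4:**
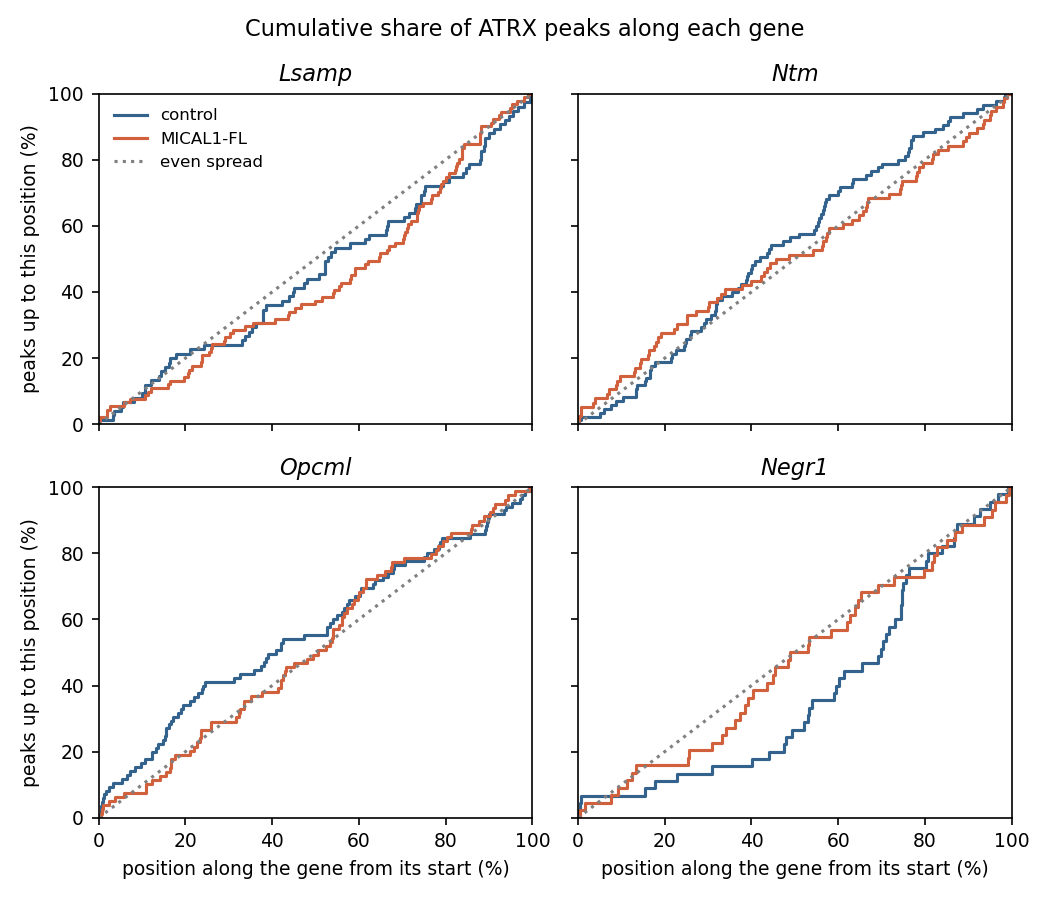
Cumulative percentage of ATRX summits against position along the gene from its start in percent, for control and MICAL1-FL lists, with a dotted line for an even spread. The control line of Opcml stands at 34.1% of its summits by 20% of the gene, above the dotted line, and that of Negr1 stands at 15.6% by 40%, below it.

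In Lsamp the density after the inner start was above that before it, in the MICAL1-FL list with an interval that left out 1. The stretch from the outer to the inner start held 46 control and 52 MICAL1-FL summits over 1.55 Mb, and the 0.649 Mb after it held 29 and 39. In density this was 29.7 against 44.7 per Mb in the control list, 1.505 times (0.911 to 2.45). In the MICAL1-FL list it was 33.6 against 60.1 per Mb, 1.79 times (1.15 to 2.76). The widest stretch of Lsamp without a control summit, 193 kb, ran from 24.2% to 33.0% of the gene, and MICAL1-FL summits were present within it. With both lists together no gap in Lsamp was wider than 60.1 kb.

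In Ntm both intervals included 1, and they overlapped those of Lsamp. After its inner start, 56.8% along the gene, the density was 0.680 times that before it (0.419 to 1.08) in the control list and 1.06 times (0.656 to 1.71) in the MICAL1-FL list. Within 20 kb on either side of this start lay 9 control and 5 MICAL1-FL summits, and around the inner start of Lsamp 1 and 4. The 100 kb with the most summits held 27 in Opcml (12 control and 15 MICAL1-FL, from 593 kb on), 24 in Ntm (12 and 12, from 125 kb), 20 in Negr1 (15 and 5, from 521 kb) and 16 in Lsamp (6 and 10, from 1541 kb). These windows were picked as the highest of each gene. The mean per 100 kb was 14.3 in Opcml, 16.6 in Ntm, 11.8 in Negr1 and 7.57 in Lsamp. The densest 100 kb of Lsamp began within 10 kb of its inner start, so it mostly counts again the summits after that start.

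Other annotated genes inside the IgLON windows had peaks at about the density of the family. Of 13 such genes, 7 had a peak in either list. These were 15.0 to 106 kb long, and the genes without a peak only 0.09 to 6.61 kb. Over the summed 301 kb of the 13 genes each list had 16 peaks, or 53.1 per Mb (30.4 to 86.2). The most were in Gm52229, a predicted protein-coding gene within Lsamp (4 control and 5 MICAL1-FL peaks over 106 kb), and in Gm15520, a long noncoding RNA gene within Ntm (2 and 6 over 56.4 kb).

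The background behind the peaks differed between the lists. Peaks whose background was the lowest value of their list (1.62 fragments in both) were 72.2% of the control peaks of the family (66.6 to 77.2) and 55.5% of its MICAL1-FL peaks (49.6 to 61.3). In protein-coding genes as a whole they were 60.7% and 64.0%. The IgLON genes thus stood above the control value and below the MICAL1-FL value, and the control percentage was the higher one in each of the 4 genes, from 63.5% in Ntm to 80.4% in Negr1 against 48.1% and 68.2%. The part of this in the positions and ratios above was not tested.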

How the data were processed

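ATRX peak lists of 1 control (mCherry) and 1 MICAL1-FL library were used, with groups from the sample titles; the input library was not analysed here. The submitters' processing notes name MACS 1.4.2, Bowtie 1.3.0, ChIPseeker 1.26.2 and SAMtools 1.9 without saying what each did. The threshold for peaks and the build are details not given in the sources used here. Input DNA served as background, per the labels' protocols. As deposited, a peak has a score (10 times its -log10 p, whole part), a fold (ratio over background), -log10 p and -log10 q values and a summit offset. The largest deposited p-value was 0.0498 (control) and 0.0496 (MICAL1-FL).

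Positions were read as GRCm38: summits within 250 bp of listed RefSeq starts of that build were 4.42 and 4.98 times as dense as at 5 to 10 kb. Depth k and background b were solved from fold = (k + 1)/(b + 1) and a Poisson p, an inference that fitted all 583 IgLON peaks within 0.001 in log10 p. Total reads are not known. Shares have exact Clopper-Pearson, ratios exact conditional binomial and counts exact Poisson intervals. Python 3.11.15 and SciPy 1.17.1 were used, and steps were tested on simulated data. Windows, overlap (at least 1 bp), alternatives and the rule for named genes (all 4 members with strongest, shared and end peaks; Iglon5; of related lists the highest and lowest ratio among genes with at least 20 peaks in both lists together; the 5 most alike long genes) were set at the outset, but members and lists were chosen with earlier results of these data known. The named genes of the neurexin and neuroligin list are not reported here. The first 20 kb, stretches around inner starts, flanks, gaps and backgrounds were added after the peaks had been seen.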

Additional observations from a re-analysis of the deposited data

How the results depend on the processing

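With 1 library per condition no replicate could be left out. No paired analysis was possible because each group has 1 sample. The family ratio stayed inside its counting interval under all 10 alternatives, between 0.916 (stronger 50% of each list) and 1.04 (all but Ntm), and the share of summits in the first 20% of the genes did so under all 6, between 18.8% and 23.5%. Peak numbers fell to 154 control and 141 MICAL1-FL peaks with the stronger 50% of each list, by construction, with tied p-values in seeded random order. Shares of overlapping peaks depended on the definition. For control and MICAL1-FL peaks they were 6.87% and 6.85% with summits within 250 bp (5.11% and 5.52% over all protein-coding genes), 4.47% and 4.45% with an overlap of at least 50% of both peaks (3.29% and 3.55%), and, allowing 1 kb between peaks, 20.96% and 21.9% (19.5% and 21.0%). In the density of the first 20 kb, an alternative added after the data were seen (first 50 kb) moved the control value from 163 to 80.0 per Mb, and the other 11 stayed within its interval. The depth of 4 to 10 fragments per peak limits all statements on single places.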
